A study of Mus musculus with 4 samples.

Results

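Galactolipid and sphingolipid synthesis was followed through 9 genes, chosen by their symbols among the 27998 genes of the deposited tables: Ugt8a, Fa2h, Gal3st1, Cers2, Sptlc1, Sptlc2, Ugcg, Sgms1 and Asah1. The material was nuclei of pooled frozen hippocampi from B6 mice at 9 months, with 1 pool and 1 droplet library per genotype. WT (7 hippocampi) carried neither alteration. EKO (7) lacked Apoe, P301S (8) carried human tau bearing the P301S change as a transgene, and P301S/EKO (7) had both alterations. The labels name neither the transgene's promoter nor the tau mouse line, and further genotypes of the study were not analysed here. Reads came from the 3′ ends of transcripts and were counted as unique molecular identifiers (UMIs). With 1 library per genotype, genotype and library cannot be told apart and no test between genotypes was possible. Values below are given in the order WT, EKO, P301S, P301S/EKO unless named.

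Sphingolipids are built on ceramide. Serine palmitoyltransferase, with subunits encoded by Sptlc1 and Sptlc2, makes the first long-chain base, and ceramide synthases such as Cers2, which prefers very long fatty acids, attach the acyl chain. Oligodendrocytes then convert 2-hydroxylated ceramide, made with Fa2h, into galactosylceramide through Ugt8a, and into sulfatide through Gal3st1; both lipids are abundant in myelin. Ceramide can instead become glucosylceramide through Ugcg, sphingomyelin through Sgms1, or be hydrolysed in lysosomes by the acid ceramidase Asah1.

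The 4 libraries held 3156 to 6767 barcodes and 8369762 to 14251675 UMIs, and 2860 to 5274 nuclei per library were kept (18567 in all). Classes were named from marker genes after clustering without the 9 genes and without 49 other sphingolipid genes. Oligodendrocyte-like nuclei numbered 298, 172, 128 and 300, which was 5.69%, 3.31%, 4.48% and 5.69% of the kept nuclei, with 276962 to 797561 UMIs per library. Over all libraries, each of the 13 oligodendrocyte markers was higher in them than in the other nuclei, by 3.10-fold (Mobp) to 8.47-fold (Mag). Nuclei of neurons numbered 4192, 4480, 2069 and 4208. Apoe checked the genotype labels. Oligodendrocyte-like nuclei held 1304 Apoe UMIs in WT and 1570 in P301S, but 7 in EKO and 2 in P301S/EKO.

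RNA of other cells was present in these nuclei. The 11 neuronal transcripts measured for this purpose made up a median of 3.41%, 2.43%, 2.99% and 2.64% of the UMIs of an oligodendrocyte-like nucleus, against 5.12% to 5.74% in neurons. The 10 microglial markers summed to 102, 123, 491 and 231 CPM in oligodendrocyte-like nuclei and to 67.5, 78.1, 328 and 178 CPM in neurons, so they were highest in P301S in both; 8 or 9 of the 10 had a UMI in each library, with Dock8 at 0 in 3 libraries, Inpp5d at 0 in EKO and Selplg at 0 in P301S. The 8 myelin protein genes, summed, reached 3949 to 5753 CPM in microglia-like nuclei and 402 to 1037 CPM in neurons. Nuclei outside neurons were called mixed when their neuronal UMI share was above 2.65%, which is 50% of the CA1 median. This held for 196 of 298, 71 of 172, 68 of 128 and 149 of 300 oligodendrocyte-like nuclei. Dentate granule neuron-like nuclei themselves had medians of 2.21%, 2.43%, 2.26% and 2.35%, below this cut, so the cut says little on RNA from them. The 7 dentate granule markers summed to 364, 747, 139 and 437 CPM in oligodendrocyte-like nuclei, with Dsp and Glis3 at 0 in P301S. In neurons they summed to 214, 386, 84.7 and 278 CPM. Between 1.90% and 2.16% of the filtered barcodes of a library occurred in another library.

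Levels are UMIs per 1000000 summed UMIs of a class in a library (CPM), with exact 95% Poisson limits. A ratio was called when it was at least 1.5-fold with 95% limits excluding 1 and the 2 sums held at least 20 UMIs together, here termed measured. All limits cover counting error only. Levels are not compared between genes, since 3′ capture differs from gene to gene.

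Ugt8a and Fa2h were called higher in oligodendrocyte-like nuclei than in neurons in each of the 4 libraries, and Gal3st1 in 3 of them. Ugt8a, the ceramide galactosyltransferase (chr3:125865271-125938619, minus strand, GRCm38), reached 166 CPM (138 to 196), 213 (162 to 275), 108 (73.3 to 153) and 255 (211 to 306) in oligodendrocyte-like nuclei. These levels rested on 132, 59, 31 and 116 UMIs. Neurons held 13.6, 7.45, 12.3 and 14.0 CPM. The lowest oligodendrocyte-like level, in P301S, lay far above the highest neuronal one, and the ratios within a library were 12.1, 28.6, 8.79 and 18.3.

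Fa2h, the fatty acid 2-hydroxylase (chr8:111345135-111393824, minus strand), stood at 85.3 CPM (66.2 to 108), 144 (103 to 197), 118 (81.9 to 165) and 134 (103 to 172) in oligodendrocyte-like nuclei. In neurons it stood at 9.09, 5.53, 8.91 and 6.06 CPM, so the ratios were 9.38, 26.1, 13.3 and 22.1. Again the classes did not overlap. Gal3st1, the galactosylceramide sulfotransferase (chr11:3983636-3999326, plus strand), was thinly covered, with 6, 6, 5 and 9 UMIs in oligodendrocyte-like nuclei. This gave 7.52, 21.7, 17.4 and 19.8 CPM, against 2.77, 2.44, 4.16 and 3.10 CPM in neurons. Its ratio was 8.87, 4.18 and 6.38 in EKO, P301S and P301S/EKO; in WT it was 2.71 with limits of 0.910 to 6.78, which include 1. Which libraries passed depended on the setting. The P301S call ended at clustering resolution 2 and with the 9 genes and the pathway list kept in the clustering, and without the mixed nuclei it rested on 2 UMIs, at 4.87 (0.554 to 19.9). The WT ratio was called with doublets kept and in both of these other clusterings.

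Cers2, the ceramide synthase for very long acyl chains (chr3:95314791-95323599, plus strand), was higher in oligodendrocyte-like nuclei by less. Levels were 167 CPM (140 to 198), 224 (172 to 287), 205 (156 to 265) and 246 (203 to 296), against 94.6, 87.1, 85.9 and 94.9 CPM in neurons. The ratios were 1.76, 2.57, 2.39 and 2.59. Cers2 overlaps 6330562C20Rik and Setdb1 on the opposite strand.

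For the first enzyme, the other branches and the acid ceramidase, levels in the 2 classes lay close together. Sptlc1 (chr13:53332748-53377397, minus strand) stood at 36.4, 28.9, 27.8 and 30.8 CPM in oligodendrocyte-like nuclei and 29.8, 28.7, 25.7 and 27.4 CPM in neurons. Sptlc2 (chr12:87305058-87388355, minus strand, overlapped on the opposite strand by Gm26764 and Gm48806) stood at 22.6, 43.3, 24.4 and 15.4 CPM against 23.5, 24.5, 23.2 and 21.3. For both subunits the ranges of the 2 classes overlapped, and no ratio was called. Sgms1, sphingomyelin synthase (chr19:32122727-32389714, minus strand, sharing its strand with AC113485.1 and opposed by 2700046G09Rik), gave 52.7, 57.8, 59.1 and 41.8 CPM against 52.7, 63.1, 59.8 and 60.1. Asah1 (chr8:41340197-41374773, minus strand) gave 61.4, 54.2, 48.7 and 59.3 CPM against 61.9, 73.4, 69.3 and 66.0. The Asah1 ratio was below 1 in each library, at 0.993, 0.738, 0.703 and 0.899, and was called in none. Ugcg, the glucosylceramide synthase (chr4:59189257-59222833, plus strand), gave 28.8, 32.5, 38.3 and 10.99 CPM against 27.5, 23.5, 30.7 and 26.4. Its P301S/EKO level, from 5 UMIs, was 2.40-fold below neurons; that call ended with median-of-ratios scaling and without the mixed nuclei.

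Of the 9 genes, 3, 4, 4 and 4 were called higher in oligodendrocyte-like nuclei than in neurons, where 5.22%, 5.25%, 4.08% and 5.22% of the genes measured were called higher. Lower calls numbered 0, 0, 0 and 1, against 2.60%, 3.10%, 5.55% and 3.83% of all genes. The median log2 ratios of the 9 were 0.28, 0.82, 0.32 and 0.17, and those of all genes -0.02, -0.07, -0.21 and -0.10. Since myelin markers named the class, these ratios describe it and carry no test. All 8 myelin protein genes were higher in each library. Without the mixed nuclei the Ugt8a ratio to neurons was 18.1, 37.4, 18.2 and 27.6, and the Fa2h ratio 16.7, 31.4, 25.0 and 35.3.

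**Figure D1:**
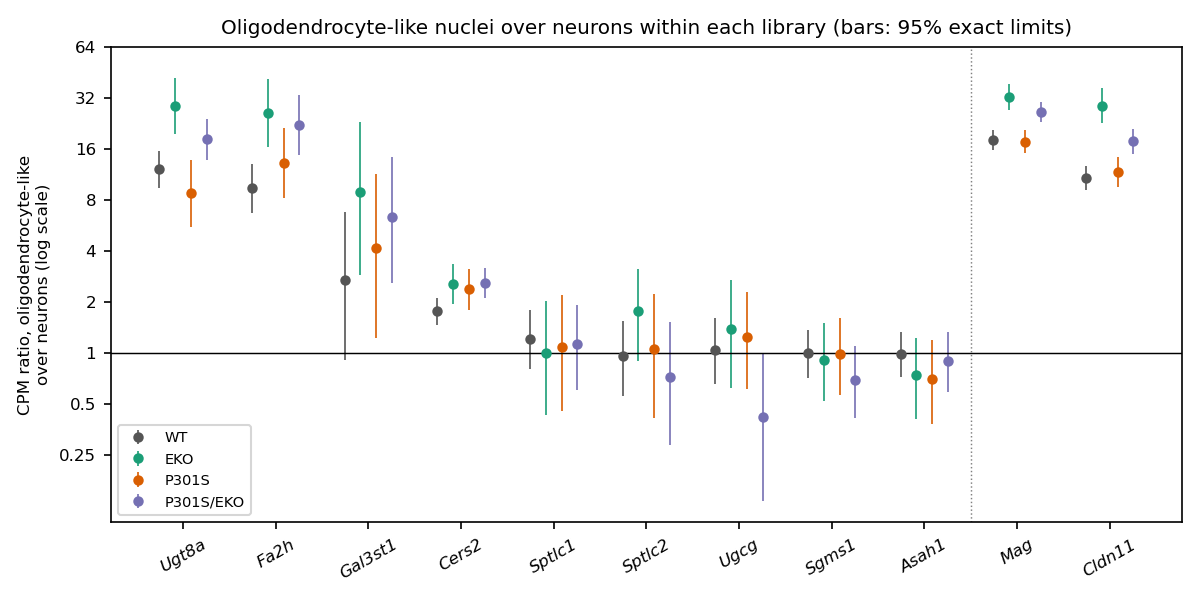
Ratio of CPM in oligodendrocyte-like nuclei to CPM in neurons within each library, on a log axis, for the 9 genes and for the myelin protein genes Mag and Cldn11 (right of the dotted line); points are libraries and bars are exact 95% limits for counting error. Ugt8a lay between 8.79 and 28.6 and Fa2h between 9.38 and 26.1, close to Mag and Cldn11, whereas Sptlc1, Sgms1 and Asah1 lay near 1.

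The share of nuclei with at least 1 UMI also separated the 2 classes for Ugt8a. With every nucleus thinned to 1000 UMIs, which left out 5, 43, 0 and 97 shallower oligodendrocyte-like nuclei and 87, 709, 0 and 832 neurons, Ugt8a was seen in 18.1%, 12.4%, 13.3% and 17.7% of oligodendrocyte-like nuclei. In neurons the thinned shares were 1.49%, 0.822%, 1.26% and 1.30%. Unthinned shares were 29.9%, 26.2%, 19.5% and 31.3% in oligodendrocyte-like nuclei, whose median depths were 2068, 1453, 1753 and 1331 UMIs, and 2.82%, 1.21%, 2.80% and 2.31% in neurons, at 1881.5, 1482, 2144 and 1452 UMIs.

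Upstream sequence is shown for both galactolipid genes for which the RefSeq promoter table (GRCm38.p6) had an entry. Sptlc2 is shown as a gene with no called ratio between oligodendrocyte-like nuclei and neurons. Of the 9 genes, 7 were matched, not Fa2h or Asah1. Each run is the 250 bases before the annotated start on the gene's strand, 5′ to 3′, with motif matches in capitals. The motifs searched on both strands were GGGCGG (the core bound by SP1 family factors), ACAAAG and ACAATG (cores bound by SOX factors) and CACGTG (the E-box).
Ugt8a, chr3:125938653-125938902, minus strand: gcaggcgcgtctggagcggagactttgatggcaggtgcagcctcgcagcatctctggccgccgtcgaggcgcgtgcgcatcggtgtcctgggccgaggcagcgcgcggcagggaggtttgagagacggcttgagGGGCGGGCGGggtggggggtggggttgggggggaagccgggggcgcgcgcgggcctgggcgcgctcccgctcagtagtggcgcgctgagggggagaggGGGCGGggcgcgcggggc
Gal3st1, chr11:3983386-3983635, plus strand, first of 3 starts: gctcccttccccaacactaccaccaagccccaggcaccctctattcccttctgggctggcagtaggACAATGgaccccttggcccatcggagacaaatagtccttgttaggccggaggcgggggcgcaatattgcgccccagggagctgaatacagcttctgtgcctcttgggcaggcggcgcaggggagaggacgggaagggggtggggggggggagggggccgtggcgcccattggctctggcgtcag
Sptlc2, chr12:87388356-87388605, minus strand: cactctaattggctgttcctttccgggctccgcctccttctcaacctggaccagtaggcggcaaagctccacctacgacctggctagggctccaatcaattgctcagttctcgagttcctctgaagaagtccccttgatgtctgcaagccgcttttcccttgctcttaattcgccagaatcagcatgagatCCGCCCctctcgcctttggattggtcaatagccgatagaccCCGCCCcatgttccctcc
The Ugt8a window held GGGCGG at 3 places, of which 2 overlap, and 76.8% G or C. The Gal3st1 window shown held 1 ACAATG and 65.6% G or C, and the Sptlc2 window held GGGCGG at 2 places, on the opposite strand, and 55.2% G or C. Of the Gal3st1 windows not shown, that of start 2 also held 1 ACAATG, with 66.8% G or C. That of start 3 held none of the motifs and 56% G or C. Among 32851 such windows, GGGCGG occurred in 32.7%, ACAATG in 10.7%, ACAAAG in 16.5% and CACGTG in 6.02%, and the median content of G or C was 52.4%. These matches are descriptions of letters and were not linked to a factor here.

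Across the 12 classes, by the median over libraries, Ugt8a and Fa2h were highest in oligodendrocyte-like nuclei, followed by oligodendrocyte precursor-like and microglia-like nuclei. The median Ugt8a level over libraries was 189 CPM (108 to 255) in oligodendrocyte-like nuclei, 120 CPM (64.0 to 161) in precursor-like nuclei and 99.4 CPM (72.3 to 130) in microglia-like nuclei. The ranges of these neighbours overlapped, and all 3 lay above endothelial cell-like nuclei, whose highest value was 52.5 CPM. Fa2h medians had that order too, at 126, 87.0 and 79.5 CPM. The order of these classes did not hold in every library. In P301S, Ugt8a stood higher in precursor-like than in oligodendrocyte-like nuclei, at 161 against 108 CPM, from 15 against 31 UMIs. Precursor-like and microglia-like nuclei also changed places between libraries. Ugt8a stood at 64.0 against 72.3 CPM in WT and at 82.6 against 114 CPM in P301S/EKO. Fa2h kept the order in P301S only, at 107 against 58.8 CPM. It stood at 57.6 against 73.3 CPM in WT, 83.9 against 85.6 in EKO and 90.06 against 90.14 in P301S/EKO. The highest Fa2h value was 31.3 CPM in endothelial cell-like nuclei and 33.2 CPM in astrocyte-like nuclei. The choroid plexus epithelium-like class, with few UMIs, reached 49.5 CPM for Fa2h in P301S from 4 UMIs. Gal3st1 was highest in precursor-like nuclei, at a median of 22.0 CPM (12.8 to 41.9), and it overlapped the range of oligodendrocyte-like nuclei. The precursor-like levels rested on 2, 4, 2 and 3 UMIs, too few to order these classes. In WT the 7.52 CPM of Gal3st1 in oligodendrocyte-like nuclei lay below the 9.78 CPM of microglia-like nuclei.

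**Figure D2:**
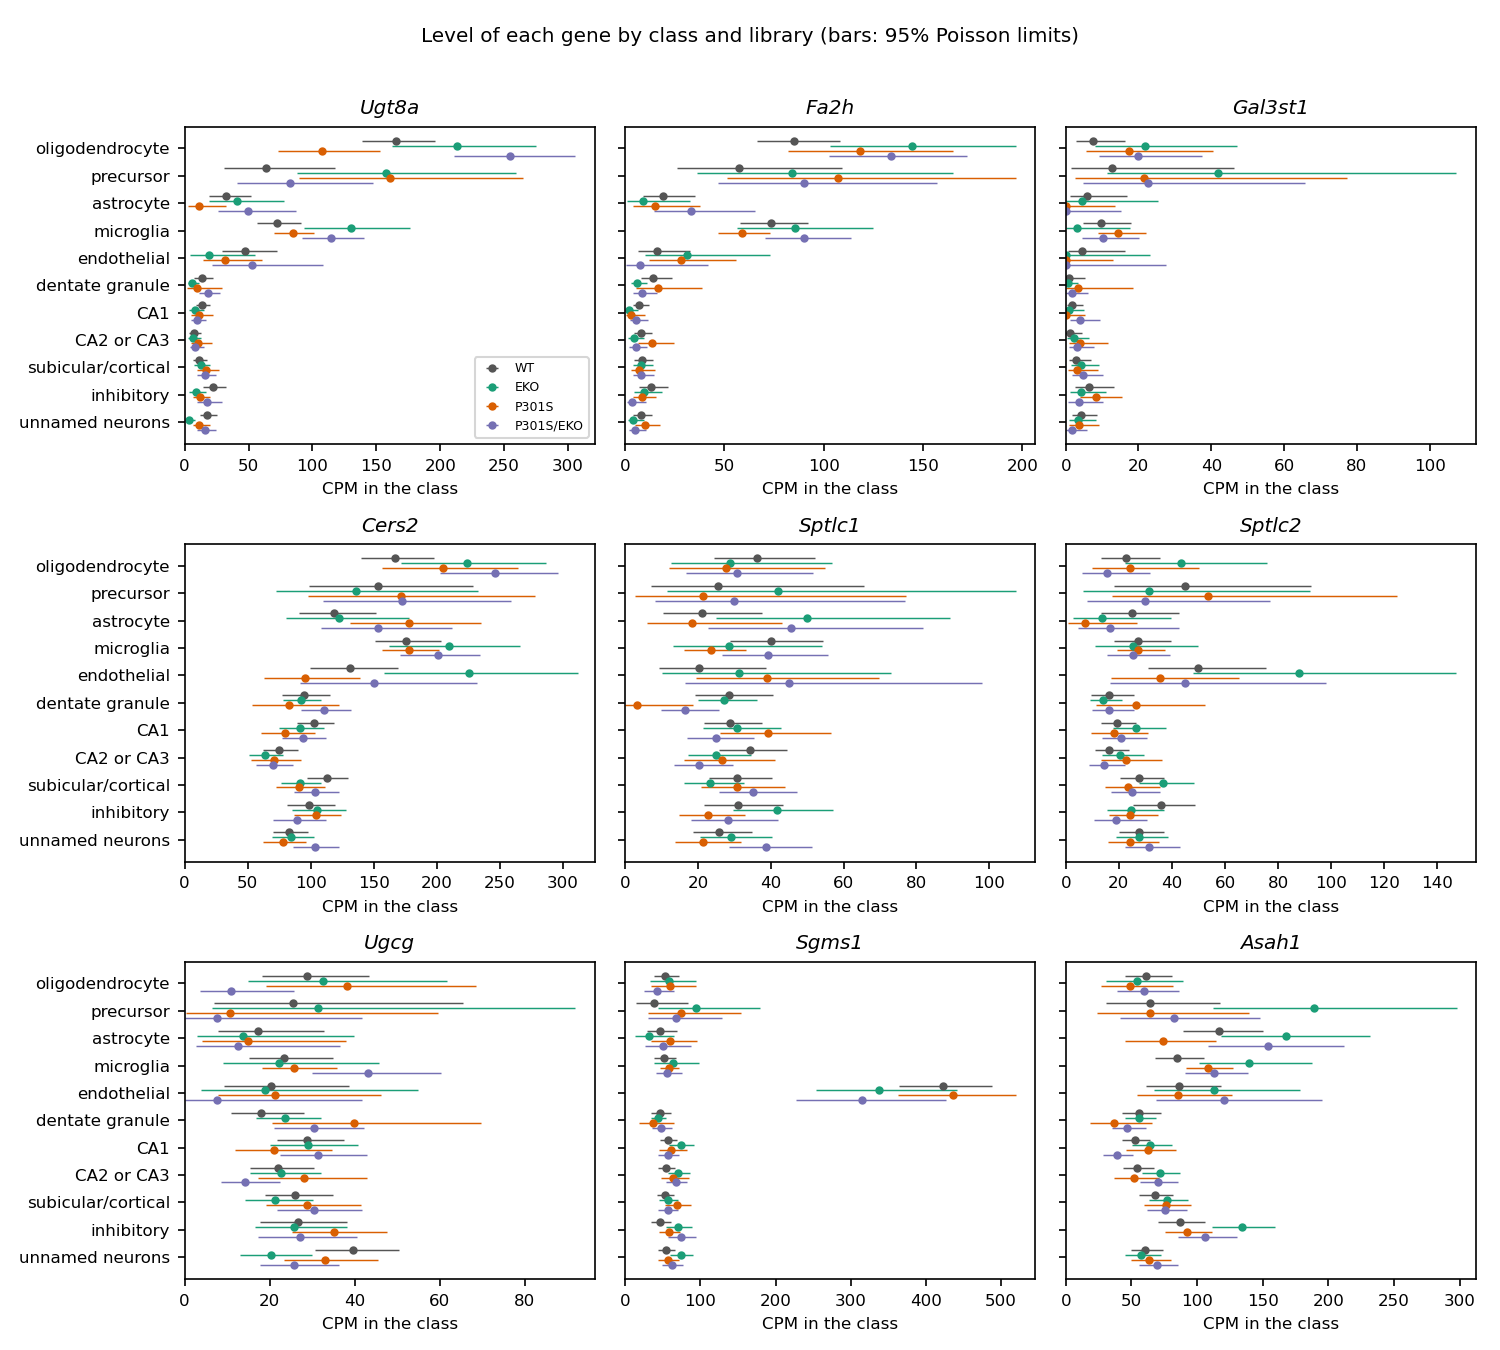
Level of each of the 9 genes in CPM (horizontal axis, linear) by class and library; points are library sums and bars exact 95% Poisson limits, and the choroid plexus epithelium-like class is left out for its few UMIs. By the median over libraries, Ugt8a and Fa2h were highest in oligodendrocyte-like and Gal3st1 in precursor-like nuclei, with overlapping ranges. The precursor-like Gal3st1 levels rested on 2 to 4 UMIs per library. Sgms1 stood at 315 to 436 CPM in endothelial cell-like nuclei, and Sptlc1 and Ugcg lay at similar levels in most classes.

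Myelin RNA accompanied Ugt8a in the other classes. Per 1000 UMIs of the 8 myelin protein genes, oligodendrocyte-like nuclei held 27.9, 26.8, 13.4 and 27.4 Ugt8a UMIs and microglia-like nuclei 18.3, 22.6, 17.8 and 20.7. Precursor-like nuclei held 15.3, 46.7, 27.1 and 26.3, from 10 to 15 Ugt8a UMIs each, and neurons 17.8, 18.5, 12.3 and 13.5. For Fa2h the values were 14.4, 18.2, 14.7 and 14.4 in oligodendrocyte-like nuclei and 18.6, 14.9, 12.4 and 16.3 in microglia-like nuclei. The part of carried-over myelin RNA in the levels outside oligodendrocyte-like nuclei was not tested.

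**Figure D3:**
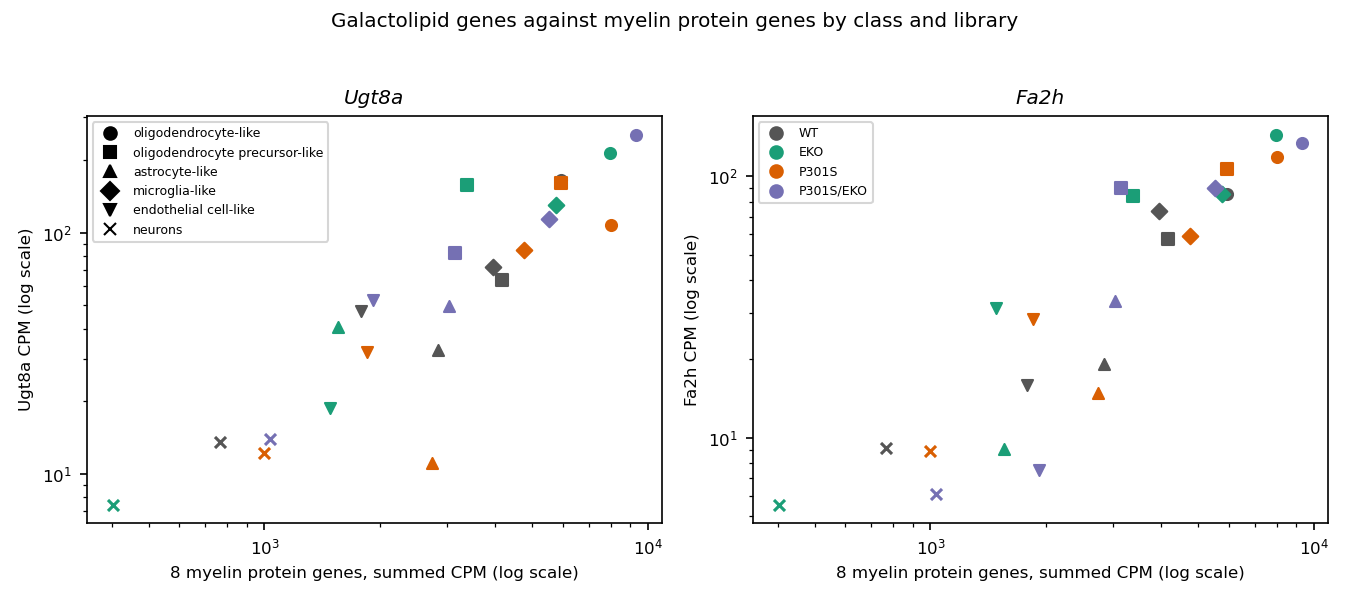
Ugt8a (left) and Fa2h (right) CPM against the summed CPM of 8 myelin protein genes, both axes log, with 1 symbol per class and 1 colour per library. Levels followed the myelin protein sum across classes; among oligodendrocyte-like nuclei the P301S library had Ugt8a at 108 CPM beside a myelin protein sum of 8023 CPM.

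Over 44 points, the 11 classes of enough nuclei in 4 libraries, the genes most like Ugt8a by Pearson's r of log levels included Mag (0.94) and Cldn11 (0.93), out of 11088 genes. Those most like Fa2h included Mag (0.94) and Mog (0.94). For Cers2 they were Evi2a (0.90), Trf (0.90) and Cnp (0.88). Ugt8a and Fa2h correlated with each other at 0.92, and Ugt8a with Gal3st1 at 0.74 and with Cers2 at 0.83, but with Sptlc1 at 0.23 and with Ugcg at -0.16. The points share libraries, depth and carried-over RNA, so the values are descriptions.

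Sgms1 had its highest level in endothelial cell-like nuclei, at 423 CPM (364 to 488), 338 (254 to 441), 436 (362 to 520) and 315 (227 to 426). Every library exceeded its neurons, by 8.03-fold, 5.36-fold, 7.29-fold and 5.25-fold; 25.5%, 18.2%, 22.3% and 17.3% of all genes measured were called higher in that contrast. The 3 genes most like it were Rasip1, Lsr and Ltbp4, with r of 0.94, 0.93 and 0.93. Sptlc2 stood at 49.7, 87.7, 35.5 and 45.0 CPM in endothelial cell-like nuclei and was called higher than in neurons in WT and EKO, at 2.12-fold and 3.57-fold.

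This class was itself mixed. At clustering resolution 2, 70.4%, 47.9%, 58.6% and 49.0% of its nuclei took the endothelial cell name (114, 57, 75 and 49 nuclei) and 29.0%, 52.1%, 40.6% and 50% the fibroblast name. Sgms1 stood at 540, 531, 609 and 483 CPM in the endothelial part, which was 10.2-fold, 8.41-fold, 10.2-fold and 8.05-fold the level of neurons. The fibroblast part held 20.3, 110, 104 and 58.4 CPM, from 2, 8, 10 and 3 UMIs, with no ratio called. The high Sgms1 level lay in the endothelial part in each library. Sptlc2 in the 2 parts stood at 61.3, 92.3, 43.5 and 49.6 CPM and at 10.1, 82.2, 20.8 and 38.9 CPM.

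Asah1 had its highest median, 135 CPM, in astrocyte-like nuclei, followed by microglia-like nuclei at 111 CPM. Endothelial cell-like and inhibitory neuron-like nuclei came next, at 99.3 and 99.0 CPM, and the ranges of these 4 classes overlapped. Oligodendrocyte-like nuclei ranked at 11 of 12 classes, with a median of 56.7 CPM. Astrocyte-like nuclei held 117, 168, 74.0 and 154 CPM, lowest in P301S. They exceeded neurons by 1.89-fold, 2.29-fold and 2.33-fold in WT, EKO and P301S/EKO, with 14.9%, 14.4% and 17.8% of all genes called higher there; the P301S ratio was 1.07 (0.644 to 1.67), where 17.4% of all genes were called higher. Without the mixed nuclei the astrocyte-like levels were 144, 167, 78.1 and 144 CPM. Inhibitory neuron-like nuclei held 87.0, 134, 92.2 and 106 CPM, which was 1.49-fold, 2.06-fold, 1.48-fold and 1.75-fold the level of the other neurons. The EKO and P301S/EKO ratios were called, as were 15.5% and 13.1% of all genes. In WT and P301S, where 13% and 11.1% of all genes were called, the ratio was just short of 1.5-fold.

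The question of the genotype comparisons was how these genes stood with the tau transgene and with loss of Apoe. In oligodendrocyte-like nuclei the Ugt8a level in CPM was lowest in P301S and highest in P301S/EKO. The shares of nuclei thinned to 1000 UMIs were ordered otherwise, lowest in EKO at 12.4% and highest in WT at 18.1%. In CPM, P301S stood 1.53-fold below WT (limits 1.03 to 2.35; log2 ratio -0.61), and P301S/EKO stood 2.36-fold above P301S (1.58 to 3.64; log2 ratio 1.23). EKO over WT was 1.29 (0.930 to 1.76), and P301S/EKO over EKO was 1.20 (0.867 to 1.67); neither was called. These 2 called ratios share the P301S library, which had the fewest Ugt8a UMIs, 31, and the fewest nuclei.

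The Ugt8a ratios depended on the setting, and other values differed between the libraries as well. Without the mixed nuclei, Ugt8a stood at 247, 279, 223 and 386 CPM. The P301S ratio to WT was then 0.902 (0.522 to 1.51) and no longer called, while P301S/EKO over P301S was 1.73 (1.05 to 2.95) and still called. The lower call also ended with median-of-ratios scaling, with doublets kept, with the 9 genes and the pathway list kept in the clustering, and with equal weight per nucleus, at log2 ratios of -0.57, -0.49, -0.55 and -0.55. The myelin protein genes did not share the lower P301S level: summed, they reached 5938, 7943, 8023 and 9318 CPM, and 4 of 8 were called higher in P301S than in WT (Mbp 1.70-fold, Mobp 1.90-fold, Mag 1.68-fold, Cldn11 1.53-fold). Per 1000 myelin protein UMIs the P301S value was 13.4 (9.13 to 19.1), against 27.9 (23.3 to 33.1) in WT and 27.4 (22.6 to 32.8) in P301S/EKO. The microglial marker sum was also highest in P301S, at the values given above. Its part and that of neuronal RNA in the P301S level were not tested.

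Fa2h was lowest in WT. EKO stood 1.69-fold above WT (1.12 to 2.54), P301S over WT was 1.39 (0.891 to 2.12), P301S/EKO over P301S 1.13 (0.733 to 1.78) and P301S/EKO over EKO 0.928 (0.613 to 1.42). The EKO call ended at 1.14 (0.638 to 2.01) without the mixed nuclei, and also with at least 500 genes or at least 1100 UMIs per nucleus. Cers2 was likewise lowest in WT, with ratios of 1.23 (0.890 to 1.69) for P301S over WT and 1.34 (0.977 to 1.83) for EKO over WT, neither called. Without the mixed nuclei, Cers2 in EKO was 1.67-fold above WT (1.05 to 2.68).

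The remaining genes were not called in oligodendrocyte-like nuclei. Sptlc1 ratios ran from 0.765 (P301S over WT) to 1.11 (P301S/EKO over P301S), with limits from 0.302 to 3.04. Sgms1 ratios ran from 0.706 to 1.12, and Asah1 ratios from 0.793 to 1.22. Sptlc2 and Ugcg were measured in P301S and in EKO over WT only. Sptlc2 in EKO was 1.92-fold WT (0.844 to 4.21), and it was called higher with doublets kept and at clustering resolution 2. Ugcg fell short of the minimum count in both P301S/EKO comparisons, where its 5 UMIs stood against 11 in P301S and 9 in EKO. Gal3st1, with 11 to 15 UMIs over 2 libraries, was measured in no genotype comparison.

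Over the 9 genes, P301S over WT had 8 measured, 0 called higher and 1 lower, where 5.30% and 5.11% of all genes were called higher and lower. P301S/EKO over P301S had 6 measured, 1 higher and 0 lower, against 4.78% and 5.06% of all genes. EKO over WT had 8 measured, 1 higher and 0 lower, against 4.23% and 3.34%. P301S/EKO over EKO had 6 measured and 0 called either way, against 3.06% higher and 4.20% lower. Median log2 ratios of the measured genes, in that order, were 0.14, 0.22, 0.26 and 0.11, against -0.04, 0.01, 0.01 and -0.05 for all genes. The comparisons share libraries pairwise and are not independent.

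**Figure D4:**
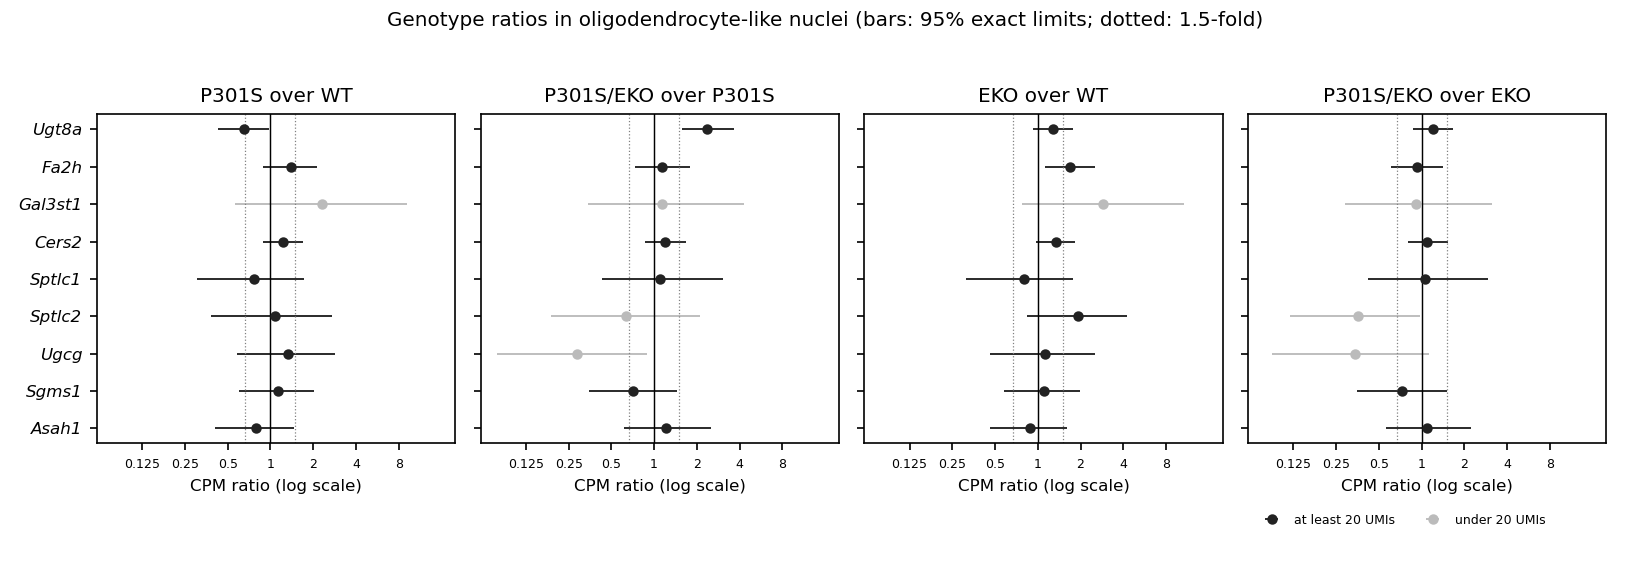
CPM ratio between genotypes in oligodendrocyte-like nuclei for each gene, on a log axis; bars are exact 95% limits for counting error, grey points have under 20 UMIs over the 2 libraries and dotted lines mark 1.5-fold. Ugt8a was 0.652 for P301S over WT and 2.36 for P301S/EKO over P301S, and Fa2h was 1.69 for EKO over WT; the limits of every other ratio with at least 20 UMIs include 1.

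Few of the other 49 genes of sphingolipid synthesis, transfer and breakdown were called in oligodendrocyte-like nuclei. Between genotypes, 22 to 26 of them were measured per comparison. Against neurons, 42 to 44 were measured per library; 2 were called higher in each, where 5.22%, 5.25%, 4.08% and 5.22% of all genes were called higher. Lower calls numbered 0, 1, 4 and 2, where 2.60%, 3.10%, 5.55% and 3.83% of all genes were called lower. Degs1, the dihydroceramide desaturase that completes ceramide, stood at 132, 148, 115 and 149 CPM in oligodendrocyte-like nuclei against 72.2, 69.8, 78.2 and 70.6 in neurons, and passed in WT, EKO and P301S/EKO. Gltp, a glycolipid transfer protein, stood at 12.5, 25.3, 27.8 and 46.1 CPM against 7.43, 6.81, 9.31 and 7.61, and passed in EKO, P301S and P301S/EKO. In P301S over WT, 3 of 26 measured genes were called lower and 0 higher, where 5.11% and 5.30% of all genes were: Ormdl3, an inhibitor of serine palmitoyltransferase, at 27.8 against 60.2 CPM, and the sphingomyelinases Smpd1, at 38.3 against 81.5, and Smpd2, at 13.9 against 52.7. In P301S/EKO over P301S, 2 of 22 were called higher, with 4.78% of all genes, namely Smpd1, at 79.1 CPM, and the glucosylceramidase Gba2, at 127 against 76.5. In EKO over WT, 1 of 25 was called lower, with 3.34% of all genes, the ceramidase Acer3, at 18.1 against 52.7 CPM. In P301S/EKO over EKO 0 of 24 were called, where 3.06% of all genes were called higher and 4.20% lower. Median log2 ratios of this list were -0.32, 0.28, -0.02 and 0.21 in the order of comparisons used above.

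In neurons, where Ugt8a and Fa2h were low, 3 ratios between genotypes were called. Ugt8a was called lower in EKO than in WT, at 7.45 against 13.6 CPM (1.83-fold, 1.33 to 2.55), and higher in P301S/EKO than in EKO (1.87-fold, 1.34 to 2.64). Fa2h was called lower in EKO than in WT, at 5.53 against 9.09 CPM (1.65-fold, 1.12 to 2.44). In EKO over WT, 4.70% of all genes were called lower and 2.08% higher in neurons, and in P301S/EKO over EKO 3.71% were called higher and 1.49% lower. The summed myelin protein genes in neurons were 767, 402, 999 and 1037 CPM, lowest in EKO as well; their part in these ratios was not tested. All 9 genes were measured in neurons, and the other 7 had no called ratio. In P301S over WT, 0 of 9 were called, at a median log2 ratio of -0.02 against 0.20 for all genes, of which 12.9% were called higher and 1.23% lower. In P301S/EKO over P301S, 0 of 9 were called as well, at a median of -0.07 against -0.20, with 1.67% of all genes called higher and 14.8% lower.

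In the other 10 classes compared, 256 ratios of the 9 genes between genotypes were measured and 24 were called, which is 9.38%, against 9.12% of the measured ratios of all genes. The calls below are read against that share. Precursor-like nuclei numbered 47 to 109 per library and held Ugt8a at 64.0, 157, 161 and 82.6 CPM, from 10, 15, 15 and 11 UMIs, lowest in WT. P301S over WT was 2.51 (1.05 to 6.25) and EKO over WT 2.46 (1.03 to 6.12), where 4.91% and 6.98% of all genes were called higher. The P301S ratio thus lay on the other side of 1 from that in oligodendrocyte-like nuclei; the difference between the classes was not tested. Without the mixed nuclei the precursor-like levels were 124, 207, 253 and 94.6 CPM, the lowest now in P301S/EKO. Neither call then held: P301S over WT rested on 12 against 6 UMIs, below the minimum count, and EKO over WT was 1.66 (0.60 to 5.27). P301S/EKO over P301S was newly called lower in this setting, at 0.374 (0.133 to 0.996), from 8 against 12 UMIs. In oligodendrocyte-like nuclei the same ratio was called higher. Asah1 in precursor-like nuclei was higher in EKO than in WT (2.95-fold) and lower in P301S/EKO than in EKO (2.29-fold), where 4.48% of all genes were called lower. Both Asah1 calls ended without the mixed nuclei.

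In microglia-like nuclei Ugt8a stood at 72.3, 130, 84.6 and 114 CPM, highest in EKO. EKO over WT was called, at 1.80-fold (1.20 to 2.67), as were 4.77% of all genes. The myelin protein sums beside these levels were 3949, 5753, 4759 and 5524 CPM, also highest in EKO, and their part in the ratio was not tested. Asah1 was called higher in the same comparison, at 140 against 85.0 CPM (1.64-fold). Fa2h was 1.53-fold and Ugcg 1.67-fold higher in P301S/EKO than in P301S, where 3.43% of all genes were called higher. Sptlc1 was 1.69-fold lower in P301S than in WT, where 5.03% were called lower. None of these 5 calls held without the mixed nuclei. Ugt8a in EKO over WT was then 2.09 (0.973 to 4.85) and Asah1 2.31 (0.996 to 5.97), Fa2h in P301S/EKO over P301S was 1.46 (0.847 to 2.52), and Sptlc1 fell below the minimum count. Ugcg turned direction, at 0.869 (0.312 to 2.26), from 8 against 13 UMIs. Cers2 in EKO over WT was newly called higher in this setting, at 2.18 (1.15 to 4.35), from 38 against 14 UMIs.

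Among the other glial and vascular classes, Asah1 in astrocyte-like nuclei was 2.08-fold higher in P301S/EKO than in P301S (1.18 to 3.78; 4.04% of all genes), and 1.84-fold (1.00 to 3.49) without the mixed nuclei. In that setting its P301S over WT ratio was newly called lower, at 0.542 (0.299 to 0.942), from 18 against 52 UMIs. Cers2 in endothelial cell-like nuclei was 1.72-fold higher in EKO than in WT (1.10 to 2.65; 4.29% of all genes). The nuclei named fibroblast at resolution 2 made up 29.0% of that class in WT and 52.1% in EKO. In the endothelial part Cers2 stood at 131 CPM in WT and 300 in EKO, a ratio of 2.28 (1.35 to 3.78) that was called, and in the fibroblast part the ratio was 1.04 (0.408 to 2.57).

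Neuron classes contributed the rest. In inhibitory neuron-like nuclei, EKO over WT was called higher for Asah1 (1.54-fold) and Sgms1 (1.52-fold), with 3.24% of all genes, and lower for Ugt8a (2.56-fold), with 3.47%. In CA1 neuron-like nuclei Asah1 was lowest in P301S/EKO, at 38.7 CPM, 1.63-fold below P301S and 1.66-fold below EKO; 9.34% and 2.89% of all genes were called lower there. Dentate granule neuron-like nuclei held Sptlc1 at 28.4, 27.2, 3.33 and 16.5 CPM, where the P301S value came from 1 UMI. P301S over WT was 0.117 (0.00287 to 0.703), and 2.62% of all genes were called lower. In the same class, EKO over WT was called lower for Fa2h (2.41-fold; 4.31% of all genes), and P301S/EKO over EKO was called higher for Ugt8a (3.08-fold; 4.16% of all genes). Ugcg in CA2 or CA3 neuron-like nuclei stood 1.96-fold lower in P301S/EKO than its P301S level, with 10.5% of all genes lower. In the neurons without a name, EKO over WT was called lower for Ugt8a (5.37-fold) and Ugcg (1.96-fold), with 4.97% of all genes, Ugt8a was higher in P301S/EKO than in EKO with 20 against 4 UMIs (4.15% higher), and Sptlc1 was 1.80-fold higher in P301S/EKO than in P301S (2.79% higher).

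Over all nuclei of a library together, fewer cells of a type and less RNA per cell cannot be told apart. Ugt8a stood at 31.5, 20.9, 31.9 and 37.9 CPM, lowest in EKO, which also had the smallest share of oligodendrocyte-like nuclei. EKO was 1.51-fold below WT, where 6.28% of all genes were called lower, and P301S/EKO was 1.81-fold above EKO, where 4.97% were called higher. Fa2h was 1.56-fold higher in that last comparison as well. Gal3st1 was called higher for P301S over WT, at 6.57 against 4.09 CPM (1.61-fold), where 16.8% of all genes were called higher. Of all Ugt8a UMIs, 34.9%, 31.9%, 13.03% and 34.5% lay in oligodendrocyte-like nuclei and 19.6%, 22.2%, 49.6% and 26.8% in microglia-like nuclei, and P301S had the lowest share of the first and the highest of the second. Such shares depend on the size and depth of a class as well as on its level. P301S held 322 microglia-like nuclei with 1394426 UMIs and 128 oligodendrocyte-like nuclei with 287425 UMIs. By level, microglia-like nuclei held Ugt8a at 72.3, 130, 84.6 and 114 CPM.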

How the data were processed

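The authors deposited whole-number UMI counts per barcode; the submitters' processing notes name Cell Ranger, mm10 and Seurat, without versions. Whether intron reads were counted is not given in the labels. Barcodes were kept at 200 genes or more and 5% mitochondrial UMIs or fewer. Scrublet's own threshold called 1, 1, 0 and 0 doublets, so the highest scores were removed at 0.8% per 1000 barcodes (271, 261, 74 and 302 barcodes). Nuclei were clustered together, with no correction for library, on 2000 variable genes (30 principal components, 15 neighbours, Leiden resolution 1). The 9 genes, the pathway list, Apoe, Mapt and Prnp, and mitochondrial or sex-linked genes took no part in it. Names came from 18 marker sets. Of 18 clusters, 2 had no name and were counted as neurons because at least 4% of their UMIs were neuronal, a threshold set after seeing the clusters. UMIs were then summed per class and library. Log2 ratios carry a prior of 0.5 UMI, and folds are plain CPM ratios.

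Levels have exact Poisson limits and ratios exact conditional binomial ones, at 95%. Nuclei of 1 pool are not replicates, so no p-value is given. The rule for names in the text took the 9 genes in every library and class, at most 4 pathway genes called per comparison in oligodendrocyte-like nuclei, and the 3 genes most like each of the 9; not every gene under this rule is reported here. The 9 genes and all lists were chosen with earlier results of these data known. Likeness used log2 CPM with a prior of 10 CPM, genes with at least 200 UMIs and classes of at least 20 nuclei. The calculation of limits was checked on simulated data. The other settings tried are given in the closing section. Software comprised scanpy 1.11.5, igraph 0.11.9, scikit-learn 1.9.0, numpy 2.4.6, scipy 1.17.1, pandas 2.3.3 and matplotlib 3.10.9 under Python 3.11.15. GENCODE vM21 gave the gene positions.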

Additional observations from a re-analysis of the deposited data

How the results depend on the processing

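No paired analysis was possible because each genotype had 1 library and the replicate numbers are only names. Other settings were median-of-ratios scaling, doublets kept, at least 500 genes, at least 1100 UMIs, clustering resolution 2, clustering with the 9 genes and the pathway list, at least 1 UMI in place of 20, equal weight per nucleus, and mixed nuclei left out. Across these 9 settings and scaling to myelin protein UMIs, added after seeing the data, no called ratio changed direction in oligodendrocyte-like nuclei, neurons or their contrast. Of the 22 called values there, 18 had no setting in which the ratio was measured but not called. A value below the minimum count is not covered by that number. In EKO, higher calls in oligodendrocyte-like nuclei over neurons numbered 3 to 5 by setting, against 4 in the main one, so a call was lost there too. Leaving the mixed nuclei out of precursor-like, astrocyte-like and microglia-like nuclei, and splitting the endothelial cell-like class at resolution 2, were also added after seeing the data. The log2 ratio of Ugcg in microglia-like nuclei, P301S/EKO over P301S, was then -0.19, and in the fibroblast part the log2 ratio to neurons was -1.37 (WT) and -0.040 (P301S/EKO) for Sgms1 and -1.20 (WT) for Sptlc2. The median log2 ratio of the 9 genes in oligodendrocyte-like nuclei ranged from -0.29 to 0.54 for P301S over WT, from -0.23 to 0.35 for P301S/EKO over P301S, from -0.15 to 0.43 for EKO over WT and from -0.13 to 0.30 for P301S/EKO over EKO, so each median took both signs. The higher Ugt8a of P301S/EKO over P301S ranged from 0.78 (mixed nuclei left out) to 1.23. With myelin protein scaling, Ugt8a in P301S over WT was -1.04, where the median of all genes was -0.47, and Fa2h in EKO over WT was 0.34 and not called, where the median of all genes was -0.40. Fa2h in EKO over WT was 0.57 with at least 500 genes and 0.50 with at least 1100 UMIs per nucleus.

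The count of the 9 genes called lower in P301S over WT was 0 rather than 1 under the 5 settings named with Ugt8a above. Those called higher in EKO over WT numbered 0 to 2, those called lower in P301S/EKO over P301S and over EKO 0 to 1, and those higher than in neurons 3 to 5. Among all genes in oligodendrocyte-like nuclei, calls numbered 731, 541, 519 and 391 in the order of comparisons, 430, 245, 202 and 250 without the mixed nuclei and 1609, 683, 1092 and 692 with myelin protein scaling. In neurons, median-of-ratios scaling moved the median of all genes from 0.20 to 0.00 for P301S over WT and from -0.20 to 0.00 for P301S/EKO over P301S, and calls from 1916 to 1381 and from 2195 to 1621. Depth limited Gal3st1, Sptlc2 and Ugcg, whose oligodendrocyte-like sums held 5 to 23 UMIs per library.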
